A study of Homo sapiens with 5 samples.

Results

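The insulin-like growth factor (IGF) system was followed through 10 genes on whole-transcriptome arrays of MDA-MB-231, an established human breast cancer cell line of triple-negative, mesenchymal type. The genes were the 7 IGF-binding proteins IGFBP1 to IGFBP7, the receptor IGF1R and its substrates IRS1 and IRS2, all of them measured among 19775 genes. A total of 26 probe sets of 54613 that were not array controls mapped to these 10 genes alone. IGFBP1 was the gene with the third lowest log2 fold of all, and the family was chosen by that fold. Every difference given for the 10 genes therefore comes from the comparison that chose them and is a description, not a test.

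The series compared cells given the vehicle DMSO (3 arrays) with cells given SAHA (2 arrays) at 2 uM, both for 30 h in serum-containing medium. SAHA (vorinostat) blocks histone deacetylases, which take acetyl groups off histones and many non-histone proteins. The cells of both groups were the unmodified line as far as the cell line and drug labels say, although the extraction protocol speaks of a transfection that is mentioned nowhere else. The labels number the arrays as replicates without saying that they came from separate cultures, so a p-value here measures the spread between arrays, which may be technical, and the number of arrays limits the precision.

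IGF1 and IGF2 are secreted growth factors that activate the receptor tyrosine kinase IGF1R at the cell surface. The activated receptor phosphorylates IRS1 and IRS2, which dock phosphoinositide 3-kinase and so pass the signal to AKT and mTOR, and AKT in turn keeps FOXO transcription factors out of the nucleus. The IGF-binding proteins are secreted carriers that hold IGFs away from the receptor or deliver them to it, are cut by proteases that set the IGFs free, and in part act on cells without IGFs. IGFBP7 differs from the other binding proteins in its low affinity for IGFs.

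RefSeq promoter windows covered 8 of the 10 genes, not IGFBP1 or IGFBP7 (GRCh38.p14, 250 bases before to 50 bases after the start). Those of IGFBP3, IRS2 and IGFBP5 are printed because IGFBP3 and IRS2 had the highest folds of the 10 genes while IGFBP5 was level, a choice made after the values were seen. They lie at chr7:45921223-45921522, chr13:109786534-109786833 and chr2:216695500-216695799, all on the minus strand, and are written 5′ to 3′ with capitals marking GC boxes (GGGCGG or its reverse complement CCGCCC).
IGFBP3: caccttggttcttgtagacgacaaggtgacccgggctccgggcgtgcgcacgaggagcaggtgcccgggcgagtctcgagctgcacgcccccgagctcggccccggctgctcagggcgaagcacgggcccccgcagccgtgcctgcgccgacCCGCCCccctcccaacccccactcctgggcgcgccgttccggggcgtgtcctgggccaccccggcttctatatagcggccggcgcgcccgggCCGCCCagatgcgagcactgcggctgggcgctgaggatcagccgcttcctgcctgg
IRS2: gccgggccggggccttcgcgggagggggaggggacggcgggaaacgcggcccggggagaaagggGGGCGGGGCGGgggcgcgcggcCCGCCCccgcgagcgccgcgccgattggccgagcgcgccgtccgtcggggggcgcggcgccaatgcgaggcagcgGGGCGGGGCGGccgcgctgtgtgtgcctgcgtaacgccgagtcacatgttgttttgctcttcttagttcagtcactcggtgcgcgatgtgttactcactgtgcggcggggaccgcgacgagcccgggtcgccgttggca
IGFBP5: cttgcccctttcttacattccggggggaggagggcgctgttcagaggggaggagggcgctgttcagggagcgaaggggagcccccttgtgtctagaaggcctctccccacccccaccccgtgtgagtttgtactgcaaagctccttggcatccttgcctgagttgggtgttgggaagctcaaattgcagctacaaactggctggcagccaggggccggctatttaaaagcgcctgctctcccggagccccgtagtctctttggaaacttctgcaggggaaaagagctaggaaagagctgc
The IGFBP3 window held 2 GC boxes and the IRS2 window 5, some of them overlapping, whereas the IGFBP5 window held 0.

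The median gene lay between 7.55 and 7.56 log2 intensity on each array, and the median log2 difference between SAHA and DMSO was -0.03. The 24 poly-A control probe sets in use were higher on the SAHA arrays by a median of 0.39 (range 0.17 to 0.66), and centring the arrays on them moved the median gene to -0.40. In the ACTB controls the 3′ signal exceeded the 5′ signal by 3.29 log2 units on DMSO array 1 and by 2.04 to 2.22 on the other 4 arrays, so DMSO array 1 stood apart. The parts of the poly-A controls and of DMSO array 1 in the results were not tested. Equal values on 2 or more arrays occurred for 43.5% of all genes, among them IGFBP2, IGFBP5 and IGFBP7. They also occurred for 9 of the 26 probe sets of the 10 genes. Where such values fall within a group they narrow its spread, so a small SD or SE there may not reflect reproducibility. What made the values equal was not tested. All 6 mesenchymal markers (VIM, CD44, AXL, CAV1, ANXA1, MSN) lay above the array median on every array, while the luminal markers ESR1, PGR and FOXA1 lay below it on every array and EPCAM and GATA3 above it. In bulk RNA, fewer cells of a type and less RNA per cell cannot be told apart.

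A gene was called where limma's adjusted p (Benjamini-Hochberg over all genes) was under 0.05. Of all genes, 14.0% were called higher after SAHA, 15.6% lower and 29.6% in either direction, and the SAHA and DMSO arrays did not overlap for 48.1%. Of the 10 genes, 5 were called higher and 2 lower, the arrays did not overlap for 7, and the median log2 difference was 0.27. The binding proteins were divided, with 2 called higher, 2 lower and 3 not called, whereas IGF1R, IRS1 and IRS2 were all called higher. Centred on the poly-A controls, 3 of the 10 were called higher and 4 lower, beside 6.88% and 73.6% of all genes under that centring. Without DMSO array 1, 4 of the 10 were called higher and 2 lower, beside 2075 and 2353 of all 19775 genes.

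**Figure D1:**
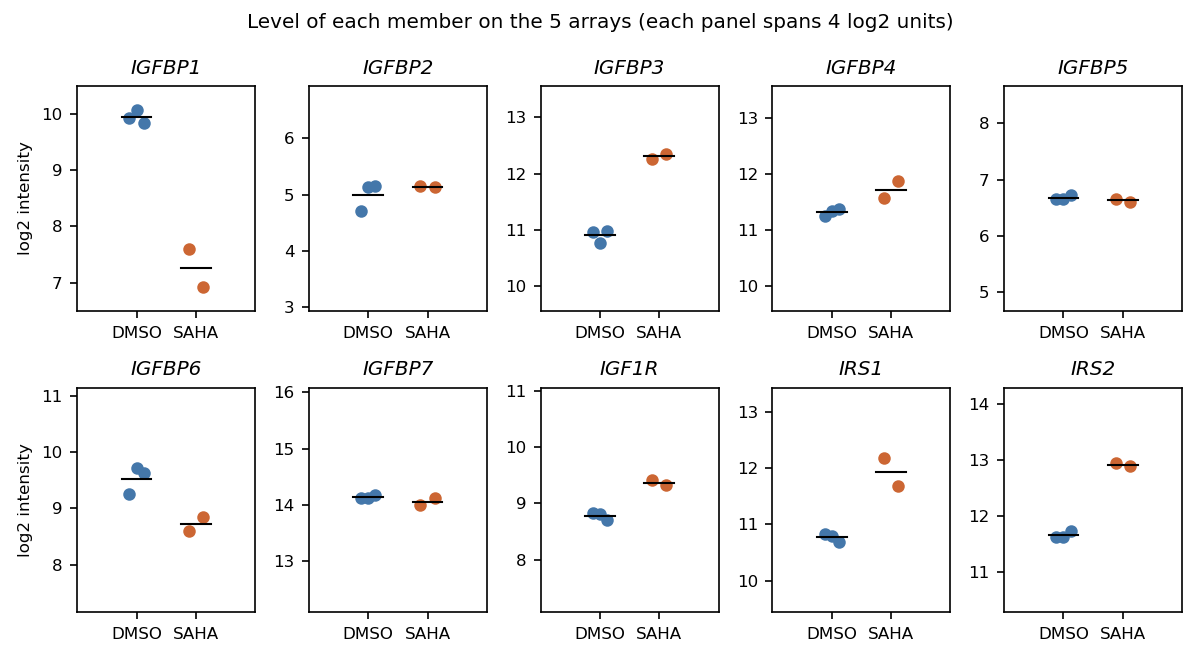
Log2 intensity of each of the 10 genes on the 3 DMSO (blue) and 2 SAHA (orange) arrays. Points are arrays, lines are group means and each panel spans 4 log2 units. IGFBP1 falls from a DMSO mean of 9.95 to a SAHA mean of 7.26, and IGFBP3, IRS1 and IRS2 lie higher on both SAHA arrays.

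IGFBP1, a binding protein best known as an insulin-repressed product of the liver and a FOXO target, had the largest difference of the 10. Its level was 9.93, 10.07 and 9.84 log2 intensity on the DMSO arrays and 7.60 and 6.92 on the SAHA arrays. Both SAHA arrays lay far below all DMSO arrays, although they were further from each other than the DMSO arrays were. The mean fell from 9.95 ± 0.12 (SD, n = 3) to 7.26 ± 0.48 (SD, n = 2), a log2 difference of -2.69 ± 0.22 (SE), or 6.44-fold lower. Leaving out any 1 array gave -3.02 to -2.35. A dim probe set of IGFBP1, at 3.80 in DMSO, was not called (0.07 ± 0.13), and averaging both probe sets gave -1.31. Of the hepatocyte markers ALB, APOA1, TTR and SERPINA1, 3 were below the array median on every array, and only APOA1 was called, at -0.26 ± 0.06 (limma's adjusted p = 0.0274).

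IGFBP6, a binding protein that prefers IGF2, was the other binding protein called lower. Its level was 9.26, 9.71 and 9.63 on the DMSO arrays and 8.59 and 8.84 on the SAHA arrays. The groups did not overlap, but DMSO array 1 lay closer to the SAHA arrays than the other DMSO arrays did. The mean fell from 9.53 ± 0.24 (SD, n = 3) to 8.72 ± 0.17 (SD, n = 2), a log2 difference of -0.82 ± 0.16 (SE). The call did not hold without DMSO array 2 (-0.73), DMSO array 3 (-0.77), SAHA array 1 (-0.70) or SAHA array 2 (-0.94).

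IGFBP3, the main carrier of IGFs in serum, was the binding protein with the highest rise. Its level was 10.96, 10.77 and 10.99 on the DMSO arrays and 12.27 and 12.35 on the SAHA arrays. The arrays within each group lay close together and the groups were far apart. The mean rose from 10.91 ± 0.12 (SD, n = 3) to 12.31 ± 0.06 (SD, n = 2), a log2 difference of 1.40 ± 0.09 (SE), or 2.65-fold higher. A second probe set read 8.55, 8.78 and 8.93 in DMSO and 10.38 and 10.48 after SAHA, a difference of 1.68 ± 0.12. Both probe sets of IGFBP3 are of the kind whose probes can match more than 1 transcript. IGFBP1 and IGFBP3 are neighbours in the RefSeq gene order of chromosome 7, and their values moved in opposite directions.

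IGFBP4, a binding protein cut by the protease PAPPA, differed little. It read 11.26, 11.34 and 11.38 on the DMSO arrays and 11.57 and 11.87 on the SAHA arrays, a difference of 0.40 ± 0.10. The groups did not overlap, and SAHA array 1 was near the highest DMSO array. Without SAHA array 2 the difference was 0.25 and not called. The call was also lost without any 1 DMSO array (0.36 to 0.42), after a further quantile normalization (0.36), without shared-sequence probe sets (0.40, other genes having left the test) and with the poly-A centring (0.02).

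IGFBP2, IGFBP5 and IGFBP7 were not called. IGFBP2, whose probe set lay below the array median on every array, read 4.70, 5.14 and 5.16 in DMSO and 5.15 and 5.14 after SAHA, so the groups overlapped. IGFBP5, a binding protein abundant in bone, read 6.65, 6.65 and 6.72 in DMSO and 6.65 and 6.61 after SAHA. This is a difference of -0.04 ± 0.04, also below the array median throughout, and 0 of its 6 probe sets was called (-0.26 to 0.57). IGFBP2 and IGFBP5 are neighbours on chromosome 2.

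IGFBP7 gave different answers by probe set. The brightest probe set read 14.12, 14.12 and 14.18 in DMSO and 13.99 and 14.12 after SAHA, with overlap and a difference of -0.09 ± 0.06. The second read 12.98, 12.94 and 12.58 in DMSO and 13.61 and 12.93 after SAHA, where SAHA array 1 was high and SAHA array 2 lay among the DMSO arrays. The other read 8.35, 8.18 and 8.04 in DMSO and 7.15 and 6.98 after SAHA, a called difference of -1.12 ± 0.11. The direction for IGFBP7 therefore rested on the probe set chosen.

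**Figure D2:**
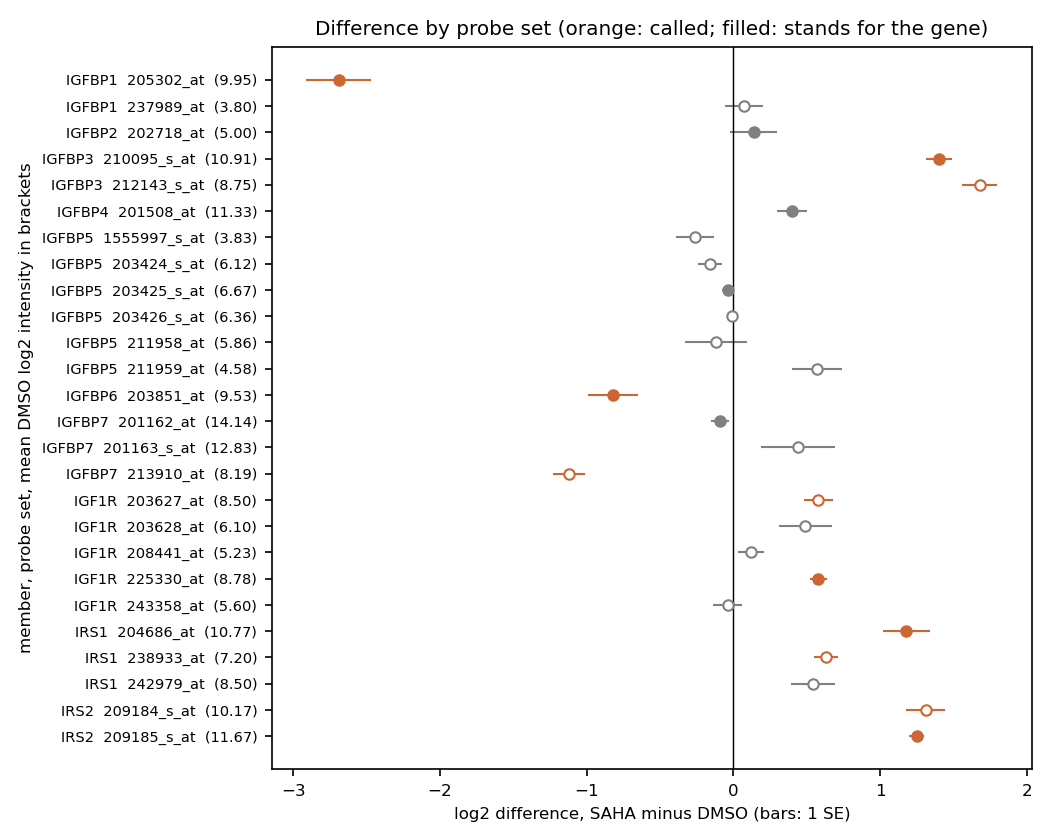
Log2 difference between SAHA and DMSO (points, with bars of 1 SE) for the 26 probe sets of the 10 genes. The mean DMSO log2 intensity is in brackets, orange points were called in a fit over all probe sets and filled points stand for their gene. IGFBP3 and IRS2 agree over both of their probe sets, while 1 of 3 IGFBP7 probe sets is called lower.

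IGF1R, the receptor, was called higher with the smallest difference of the signalling genes. It read 8.83, 8.81 and 8.71 on the DMSO arrays and 9.41 and 9.32 on the SAHA arrays. Both SAHA arrays lay above all DMSO arrays with little spread in either group, and the difference was 0.58 ± 0.06, or 1.50-fold. Of its 5 probe sets, 2 were called higher and the others ranged from -0.04 to 0.49, and the average of all 5 was 0.34. With the poly-A centring the difference was 0.21 and not called.

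IRS1 and IRS2, the docking proteins of IGF1R and the insulin receptor, were both called higher. IRS1 read 10.83, 10.79 and 10.68 in DMSO and 12.19 and 11.69 after SAHA, a difference of 1.18 ± 0.16 (2.26-fold). The SAHA arrays were further apart than the DMSO arrays, and leaving out 1 array gave 0.93 to 1.43. Its other probe sets gave 0.63 ± 0.08, called, and 0.54 ± 0.15, not called, and the average of all 3 was 0.78.

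IRS2 was the tighter of the pair. It read 11.63, 11.63 and 11.74 in DMSO and 12.95 and 12.89 after SAHA. The mean rose from 11.67 ± 0.06 (SD, n = 3) to 12.92 ± 0.04 (SD, n = 2), a difference of 1.25 ± 0.06 (2.38-fold). The second IRS2 probe set gave 1.31 ± 0.13, and leaving out 1 array gave 1.22 to 1.29. Both IRS2 probe sets are of the shared-sequence kind.

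Over all 26 probe sets, in the fit of 54613 probe sets, 8 were called higher and 3 lower, beside 9.01% and 9.05% of all probe sets. IGFBP4 was called in the fit over genes and not in this one. Of the 26, 16 did not overlap between groups, beside 39.2% of all probe sets.

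The promoter windows differed in base composition. Those of the 5 genes called higher held 74.0% to 79.7% G and C (IGFBP4 74.0%, IGFBP3 74.7%, IRS2 75.7%, IRS1 79.3%, IGF1R 79.7%) and 30 to 55 CpG dinucleotides. Those of IGFBP2, IGFBP5 and IGFBP6, of which none was called higher, held 55.3%, 59.0% and 61.7%, and 8, 9 and 12 CpG. IGFBP2 had 3 windows, of which only the first was used. IGFBP1, the gene with the largest difference, and IGFBP7 had no window. The median of the 35116 promoters was 58.7% and 14 CpG. GC boxes, searched on both strands after the values were seen, numbered 4 in IRS1, 5 in IRS2, 2 each in IGFBP3, IGFBP4 and IGF1R, 1 each in IGFBP2 and IGFBP6 and 0 in IGFBP5, and 45.0% of all promoters held at least 1. Among the genes tested that had a window, 18.3% of the 2339 at or above 74.0% G and C were called higher and 19.8% lower, and 14.0% and 16.3% of the 13045 below it. GC-rich windows thus went with more calls in both directions over all genes.

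The letters TATAAA occurred in the IGFBP4 window alone of the 8, and in 11.5% of all promoters. The FOXO-type letters CAAAACA or TGTTTTG, both strands searched, occurred in the IRS2 window alone of the 8, and in 4.92% of all promoters. The FOXO-type letters of the IRS2 window did not overlap a GC box.

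**Figure D3:**
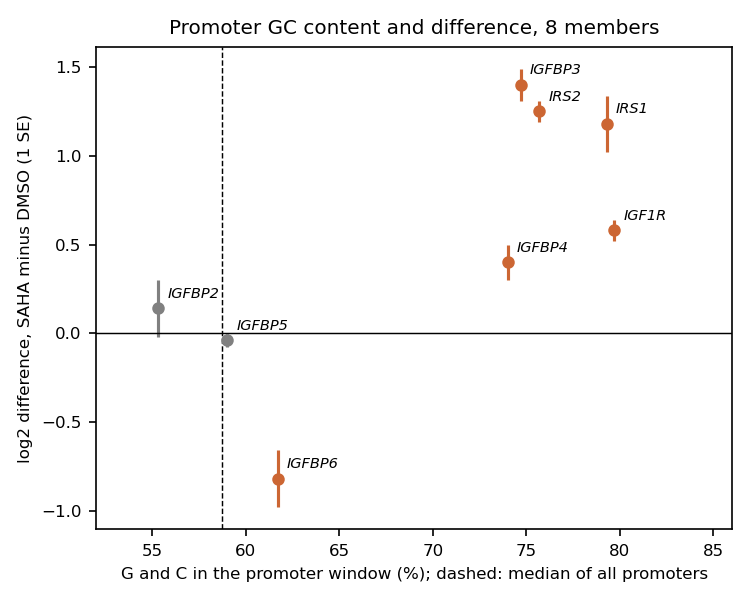
G and C content of the promoter window (percent, x axis) against the log2 difference between SAHA and DMSO (y axis, bars 1 SE) for the 8 genes with a window. Orange points were called, and the dashed line is the median of all promoters. The 5 genes called higher sit at 74.0% or more and the 3 others at 61.7% or less, with the first of 3 windows used for IGFBP2. Over all genes with a window, 18.3% at or above 74.0% were called higher and 19.8% lower, beside 14.0% and 16.3% below it. IGFBP1, the gene with the largest difference, and IGFBP7 had no window.

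Around these 10 genes, 10 lists of the pathway held 93 genes, of which 88 were measured. Of the 88, 27 rose (30.7%, beside 14.0% of all genes) and 11 fell (12.5%, beside 15.6%), with a median log2 difference of 0.02. The lists were chosen with earlier results of these data known, so these shares are a description, not a test. Without DMSO array 1, 22 of the 88 rose and 9 fell, beside 2075 and 2353 of all 19775 genes. With the poly-A centring, under which 6.88% of all genes were called higher and 73.6% lower, 17 of the 88 were called higher and 52 lower. By list, that centring gave 0 higher and 5 lower among the ligands and other receptors, 3 and 3 among the proteases and inhibitors, 1 and 1 among the surface partners, 4 and 5 among the related proteins and 0 and 2 among the IGF2 mRNA-binding proteins. It gave 0 higher and 9 lower among the adaptors, 2 and 8 among the dampeners, 1 and 14 in the PI3K, AKT and mTOR list (median -0.41, near the -0.40 of the median gene), 2 and 0 among the FOXO genes and 4 and 5 among the FOXO targets. All p-values below are limma's adjusted p over all genes.

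Among the ligands and other receptors, 1 of 6 rose and 1 fell. IGF2R, which clears IGF2 from the cell surface, rose by 0.61 ± 0.05 (limma's adjusted p = 0.00194), a call that the poly-A centring ended (0.24), and its probe sets without shared sequence gave 0.39. INSR, the insulin receptor, read 9.90, 9.92 and 9.94 in DMSO and 8.83 and 8.94 after SAHA. Its difference was -1.04 ± 0.05 (limma's adjusted p = 0.000661), opposite in sign to that of IGF1R, and averaging its probe sets gave -0.65. IGF1 (0.00), INS (0.04), the carrier subunit IGFALS (-0.02) and the insulin receptor-related receptor INSRR (0.08) were not called and lay below the array median on all arrays. IGF2 was not analysed here.

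Of 8 proteases of the binding proteins and their inhibitors, 4 rose and 0 fell, with a median of 0.42. ADAM12, a membrane protease that cuts IGFBP3 and IGFBP5, rose by 1.60 ± 0.13 (limma's adjusted p = 0.00185), or by 0.55 with its probe sets averaged. STC1, an inhibitor of PAPPA, rose by 1.41 ± 0.13 (limma's adjusted p = 0.00251). ADAM28, which cuts IGFBP3, rose by 0.96 ± 0.09 (0.44 averaged), and the secreted serine protease HTRA1 by 0.46 ± 0.07. ADAM12 and ADAM28 lay below the array median on the DMSO arrays. The HTRA1 call was lost without DMSO array 3 (0.45) or SAHA array 2 (0.40), and with the poly-A centring (0.09). In the main fit the list therefore held risen members of both kinds, proteases and an inhibitor. The probe set of STC1 is of the shared-sequence kind. Without such probe sets 7 of the list were measured and 3 rose, the proteases ADAM12, ADAM28 and HTRA1, so no inhibitor was called.

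Of the 4 cell surface partners, ITGA5, the integrin chain bound by IGFBP1 through an RGD sequence, rose by 0.96 ± 0.06 (limma's adjusted p = 0.000977). LRP1, an endocytic receptor for IGFBP3, rose by 0.31 ± 0.07 and lay below the array median on all arrays. Its call was lost without any 1 array other than DMSO array 1 (0.30 to 0.34 in those fits), and it read 0.18 with its probe sets averaged, -0.06 from its probe sets without shared sequence and -0.06 with the poly-A centring.

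Of the 10 related proteins that carry an IGFBP-like domain, 4 rose and 1 fell. CCN2 and CCN1, matricellular proteins, rose by 1.42 ± 0.12 and 0.75 ± 0.08. CRIM1, a membrane protein, rose by 0.82 ± 0.19, but its call was lost without SAHA array 1 (0.52) or any 1 DMSO array (0.77 to 0.86). CRIM1 has shared-sequence probe sets alone. CCN3 went the other way, at -1.05 ± 0.12 (limma's adjusted p = 0.0041). Without any 1 of the DMSO arrays 1, 2 or 3, the list had 2 risen members in place of 4. Of the 3 IGF2 mRNA-binding proteins, which are RNA-binding proteins and no carriers of IGF, IGF2BP2 rose by 0.56 ± 0.06, or 0.19 and not called with the poly-A centring.

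**Figure D4:**
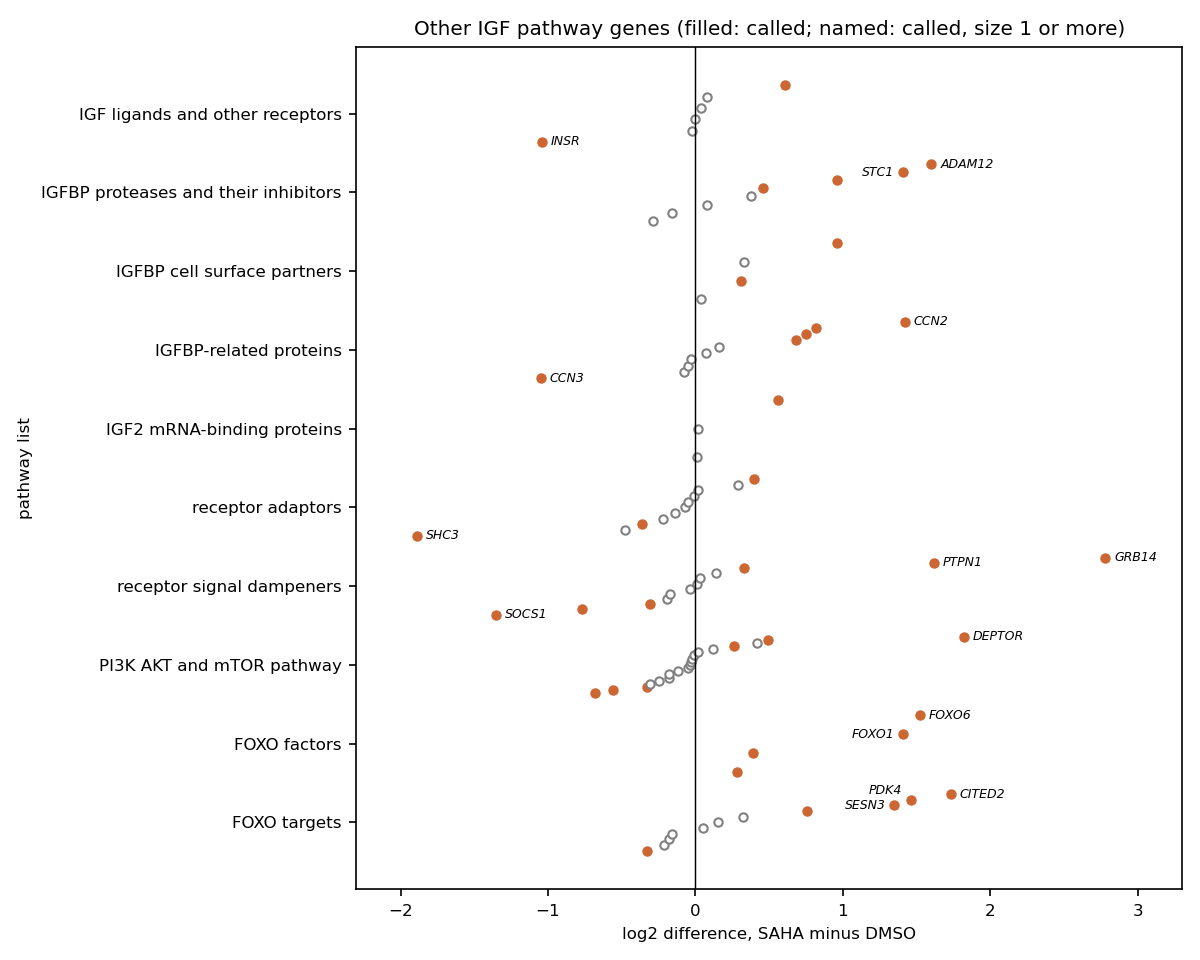
Log2 difference between SAHA and DMSO (x axis) for the 88 measured genes of the 10 pathway lists (rows). Filled points were called at limma's adjusted p under 0.05, and called genes with a size of 1 or more are named. All 4 FOXO genes lie above 0, while the PI3K, AKT and mTOR genes lie on both sides of it.

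Of 11 receptor adaptors, 1 rose and 2 fell. SHC3, a phosphotyrosine adaptor, read 9.79, 9.56 and 9.69 in DMSO and 8.04 and 7.54 after SAHA, at -1.89 ± 0.17 (limma's adjusted p = 0.00224), or -0.91 with its probe sets averaged. GAB1, a docking protein, fell by 0.36 ± 0.05 and was not called with its probe sets averaged (-0.14). GRB2, the adaptor that links receptors to RAS, went the other way by 0.40 ± 0.08, a call lost without SAHA array 1 (0.31) or any 1 DMSO array (0.37 to 0.43), and with the poly-A centring (0.03). Its probe sets averaged gave 0.25.

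Of 12 genes that dampen receptor signals, 3 rose and 3 fell. GRB14, which binds and inhibits the insulin receptor, read 4.81, 4.50 and 4.67 in DMSO and 7.57 and 7.30 after SAHA, a rise of 2.78 ± 0.13 (limma's adjusted p = 0.000639) from a level below the array median. PTPN1, the phosphatase PTP1B that acts on the insulin receptor and IGF1R, rose by 1.62 ± 0.10, or by 0.38 with its probe sets averaged. SOCS1, a cytokine signal suppressor that also targets IRS proteins, fell by 1.35 ± 0.09, or by 0.44 with its probe sets averaged. It lay below the array median on all arrays. PHLPP2, a phosphatase of AKT, fell by 0.77 ± 0.06, or by 0.41 averaged. The dampeners thus moved in both directions, with the largest difference in GRB14. The probe set that stood for SOCS1 is of the shared-sequence kind. Without such probe sets 9 dampeners were measured, of which 3 rose and 1 fell, in place of 3 and 3.

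Of 19 measured genes of the PI3K, AKT and mTOR pathway, 3 rose and 3 fell, with a median of -0.04. DEPTOR, an inhibitor of mTOR, rose by 1.82 ± 0.07 (limma's adjusted p = 0.000495) from a level below the array median on all arrays, or by 0.80 with its probe sets averaged. PIK3CD, a catalytic subunit, rose by 0.49 ± 0.05 (0.21 with its probe sets averaged, 0.12 and not called with the poly-A centring). AKT1, the kinase itself (shared-sequence probe sets alone), and AKT1S1, an inhibitory partner of mTOR, fell by 0.68 ± 0.08 and 0.56 ± 0.08. Both calls were lost without SAHA array 1.

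All 4 FOXO genes rose, with a median of 0.90. FOXO6 read 8.52, 8.22 and 8.32 in DMSO and 9.75 and 9.99 after SAHA, a rise of 1.52 ± 0.12 (limma's adjusted p = 0.00169). FOXO1 read 8.12, 8.04 and 8.31 in DMSO and 9.58 and 9.56 after SAHA, a rise of 1.41 ± 0.09 (limma's adjusted p = 0.00112), or of 0.87 with its probe sets averaged. FOXO1 and FOXO6 have shared-sequence probe sets alone, and without such probe sets the list held FOXO3 and FOXO4, with a median of 0.33. The rises of FOXO4 (0.39 ± 0.05) and FOXO3 (0.28 ± 0.06) were far smaller, and FOXO4 lay below the array median on all arrays. FOXO3 lost its call with any 1 array left out (0.23 to 0.33), with its probe sets averaged (0.16) and with array weights (0.28), and read -0.10 with the poly-A centring. FOXO4 lost its call without SAHA array 1, which left 2 of the 4, and with the poly-A centring (0.01).

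Of 11 textbook FOXO targets, 4 rose and 1 fell. CITED2, a transcriptional co-regulator, rose by 1.73 ± 0.18. PDK4, a kinase that restrains pyruvate oxidation, rose by 1.46 ± 0.14 (0.50 with its probe sets averaged). It lay below the array median on the DMSO arrays. SESN3, a stress-induced regulator of mTORC1, rose by 1.35 ± 0.19 (0.54 averaged), and BCL6, a transcriptional repressor, by 0.76 ± 0.09. Without SAHA array 1, SESN3 and BCL6 lost their calls, which left 2 of the 4. SESN1 went the other way by -0.33 ± 0.06, and its call was lost without DMSO array 1, SAHA array 1 or SAHA array 2 (-0.33, -0.35 and -0.30). IGFBP1, itself a textbook FOXO target, was at -2.69.

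The genes whose log2 values, centred per gene over the 5 arrays, lay nearest to those of IGFBP1 by Euclidean distance were NMI (0.40), GTF3C6 (0.43), TYMS (0.43), FAM169A (0.49) and CARD8-AS1 (0.60). Their log2 differences were -2.91, -2.48, -2.62, -2.51 and -2.17. With probe sets averaged, TYMS gave -1.86, FAM169A -1.51 and CARD8-AS1 -1.21. With 5 arrays in 2 groups, nearness mostly reflects a like size of difference between groups.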

How the data were processed

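Total RNA of 5 biotin-labelled arrays (3 DMSO, 2 SAHA) was analysed. Per the submitters' processing notes, the authors used RMA in R 2.12. They deposited intensity values on a linear scale, of which log2 was taken, with no further normalization. Other upstream settings are not given in the sources used here, and signal over background is unknown. Of 54675 probe sets, 62 were controls, 41091 had 1 gene, 1801 several and 11721 none in the annotation table used. Current symbols were looked up by gene identifier for those with 1 gene, and an entry was found for 41037. The brightest probe set stood for its gene. SAHA and DMSO were compared with limma 3.58.1 in R 4.3.3 (two-sided, no covariates, no filter on level, Benjamini-Hochberg, 0.05). The fit was also run on simulated data with independent normal noise and few changed genes. In the real data 29.6% of genes were called, so that run does not vouch for the calls given here. Python 3.11.15, pandas 2.3.3 and matplotlib 3.10.9 made tables and plots. Promoters came from RefSeq (GRCh38.p14), using the first of several windows of a gene.

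The members and lists were chosen with earlier results of these data known. The text names all 10 members, the ligands and other receptors, up to 4 called genes of each list with the largest size, called genes against a list's main direction, and the 5 genes nearest to IGFBP1. Alternatives covered scaling, dim probe sets (below the 40th percentile), averaging, shared-sequence probe sets, the variance model, weights per array, leaving out single arrays, a replicate block and a threshold of 0.01. Marker lists gave these counts: 2 of 6 mesenchymal, 2 of 5 luminal, 1 of 4 fibroblast and 1 of 4 hepatocyte genes were called lower, and of 3 haematopoietic genes 1 was called higher and 1 lower. The members' proteins were not analysed here.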

Additional observations from a re-analysis of the deposited data

How the results depend on the processing

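The 10 members kept their direction and side of the threshold in 126 comparisons with an alternative, lost the call in 16, gained one in 2 and changed sign while uncalled on both sides in 2. For the other named genes these were 545, 53, 2 and 8, and 5 more changed sign with a call on at least 1 side. Centred on the poly-A controls, 1361 genes were higher and 14548 lower, with 3 and 4 members, 17 and 52 pathway genes and 5 and 11 member probe sets. There FOXO3 read -0.10, INS -0.33, INSRR -0.29 and LRP1 -0.06, and LRP1 read -0.06 without shared-sequence probe sets. The sign changes of members were both of IGFBP2, -0.23 with that centring and -0.01 without DMSO array 1. Without shared-sequence probe sets, which left IGFBP3 and IRS2 untested, 2 members were higher and 2 lower, beside 2176 and 2105 of the genes left in that fit. At a threshold of 0.01, 1544 genes were higher and 1773 lower, 1 member was lower and 5 member probe sets were higher. With any 1 array left out, 1769 to 2234 genes were higher and 1985 to 2797 lower, 1 to 2 members were lower, and 5 to 7 member probe sets were higher and 1 to 3 lower. With the replicate number as a block, 1262 genes were higher and 1316 lower, 3 members were higher (IGFBP4 at 0.42 and IRS1 at 1.13 lost their call), 15 pathway genes were higher and 7 lower, and 0 member probe sets were higher and 0 lower by limma (10 and 5 at an unadjusted p under 0.05). The arrays share only a number: same-numbered arrays deviated with correlations of 0.151 and -0.0669. For the alternatives, the share of all probe sets called is not given here, so the counts of member probe sets stand without a background. Depth does not apply to arrays. Signal over background is unknown, so values of probe sets below the array median, such as IGFBP2, IGFBP5, SOCS1, LRP1, FOXO4 and DEPTOR, are the least sure.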
